A study of Mus musculus with 32 samples.

Results

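The Cyp4a genes encode cytochrome P450 enzymes of the endoplasmic reticulum that place a hydroxyl group on the last carbon of a fatty acid chain, the first step of omega-oxidation. Alcohol and aldehyde dehydrogenases then turn the product into a dicarboxylic acid, which is activated to a CoA ester, carried into peroxisomes and shortened there. In rodent liver, Cyp4a10 and Cyp4a14 are classical target genes of the fatty acid receptor PPARα, and Cyp4a12a, an arachidonic acid omega-hydroxylase, is known for its male-biased, androgen-dependent expression. The 6 genes described here, Cyp4a14, Cyp4a10, Cyp4a31, Cyp4a32, Cyp4a12a and Cyp4a12b, were taken by name out of 54532 genes in the count table. Cyp4a14 was selected on its measured level, which was low in male Cyp2c70 knockout (KO) livers on chow and high in male KO livers on SC-435, so in those 2 comparisons the members' values are a description with no test, and Cyp4a14 was tested only among females.

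Liver RNA was sequenced from 32 C57BL/6 mice, 4 in each of 8 groups formed by sex, genotype (wild type (WT) or Cyp2c70 KO) and diet (chow or chow with SC-435), all killed at 12 weeks of age. Cyp2c70 is the mouse P450 that makes muricholic acids, and the KO line carried a CRISPR-Cas9 lesion aimed at exon 2. SC-435 inhibits bile acid uptake in the ileum by the transporter ASBT, and its dose was 0.006% of the diet, about 11 mg/kg/day, starting 3 weeks after weaning according to the labels, while control mice stayed on chow. The paper instead describes weaning at 4 weeks of age, a diet switch then and 8 weeks of feeding. Labels and paper thus differ, and when treatment began and how long it lasted are not certain. The mice were fed, not fasted, when tissue was taken. Separate mice are the replicates, and nothing in the labels ties mice of different groups together.

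Total counts per library ran from 36476021 to 44771350. Cyp2c70 itself had a mean of 710 counts per 1000000 reads counted (CPM, scaled by TMM factors) in WT females on chow and 163 in KO females on chow, and 621 and 172 in the same male groups, and no KO mouse overlapped a WT mouse of its sex and diet. All 8 hepatocyte markers were read in every group. The library of male WT chow mouse 1 stood apart, with a TMM factor of 0.639 and a mean correlation of 0.929 with its group, so the log2 fold changes of Cyp4a14, Cyp4a10 and Cyp4a12a that use it are also given without it. Female WT chow mouse 2 had 22 counts over the Y-linked genes Ddx3y, Uty, Eif2s3y and Kdm5d, or 0.52 CPM against 18.2 to 174 CPM in males, and Cyp4a12a and Cyp4a12b comparisons that use it are given without it too. The male value of 18.2 CPM was that of male WT chow mouse 1, which was low for each of these genes. Its Ddx3y was 5.73 CPM against 78.1 to 84.3 in its group, and its Eif2s3y 7.36 against 47 to 55.4. The cause was not tested. In bulk liver RNA, fewer hepatocytes and less RNA per hepatocyte cannot be told apart.

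All members lie within 322557 bases of chromosome 4 in GRCm38. Cyp4a12a is at chr4:115299046-115332815, Cyp4a12b at chr4:115411624-115439034, Cyp4a10 at chr4:115518264-115533649, Cyp4a31 at chr4:115563649-115579015 and Cyp4a32 at chr4:115600969-115621602, all on the plus strand. Cyp4a14, at chr4:115486200-115496142, lies between Cyp4a12b and Cyp4a10 on the minus strand. Each encodes 507 to 509 amino acids. The coding sequences fall into a pair, a trio and a single gene. Cyp4a12a and Cyp4a12b were identical at 98.5% of aligned coding bases, Cyp4a10 and Cyp4a32 at 97.2%, Cyp4a10 and Cyp4a31 at 96.6%, and Cyp4a14 at no more than 76.1% with any other member.

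How far counts can be assigned to one member follows from those sequences. Of the 50-base words in its annotated transcripts, Cyp4a14 shared almost none with another gene (99.8% occurred in Cyp4a14 alone). The share was 70.2% for Cyp4a10, 79.4% for Cyp4a31, 56.2% for Cyp4a32, 51.1% for Cyp4a12a and 50.6% for Cyp4a12b. Counts of the last 5 genes are therefore uncertain where reads fit more than one copy, and sums over near-identical copies are given beside the main results. The stretches below show where the copies differ most within one exon. For the Cyp4a10 trio they are in exon 2 (coding bases 202 to 261, GRCm38, plus strand, at chr4:115519642-115519701, chr4:115565022-115565081 and chr4:115602272-115602331), and capitals mark the 9 positions at which the copies are not all the same.
Cyp4a10: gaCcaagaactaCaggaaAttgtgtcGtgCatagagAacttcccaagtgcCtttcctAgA
Cyp4a31: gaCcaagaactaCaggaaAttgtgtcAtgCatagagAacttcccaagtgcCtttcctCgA
Cyp4a32: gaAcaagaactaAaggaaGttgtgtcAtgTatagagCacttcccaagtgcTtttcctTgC
For the Cyp4a12 pair they are in exon 6 (coding bases 631 to 690, at chr4:115326629-115326688 and chr4:115432882-115432941, plus strand), and capitals mark the 4 positions that differ.
Cyp4a12a: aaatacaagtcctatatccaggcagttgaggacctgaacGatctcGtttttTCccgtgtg
Cyp4a12b: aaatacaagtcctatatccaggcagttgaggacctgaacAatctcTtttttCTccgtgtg
Cyp4a10 and Cyp4a31 were alike at most of the marked bases while Cyp4a32 stood apart, and outside its marked bases the Cyp4a12 pair is identical in this window.

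The abundant members differed between the sexes. Per unit length (RPKM, CPM per kilobase of the gene length given with the counts), the 6 genes together reached 971 ± 407 (SD, n = 4 here and for every group mean below) in WT females on chow and 490 ± 211 in WT males on chow. In WT females Cyp4a14 made up 56.6 ± 3.13% of this sum and Cyp4a10 40.7 ± 3.18%, while Cyp4a12a made up 0.0507 ± 0.0416% and Cyp4a12b 0.00851 ± 0.00659%. In WT males on chow Cyp4a12a was the largest part, at 40.4 ± 9.51%, followed by Cyp4a10 at 28.2 ± 5.62%, Cyp4a14 at 13.1 ± 5.81% and Cyp4a12b at 12.7 ± 3.49%. Cyp4a31 and Cyp4a32 had group means of 1.67 to 6.18 and 13.5 to 22.6 RPKM. In KO males on chow Cyp4a32 made up 8.39 ± 0.607% of the sum and Cyp4a14 3.85 ± 1.2%, so the order of these genes was the opposite of that in WT males. Cyp4a14 was chosen for its low level in KO males on chow, so this order is only a description.

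**Figure D1:**
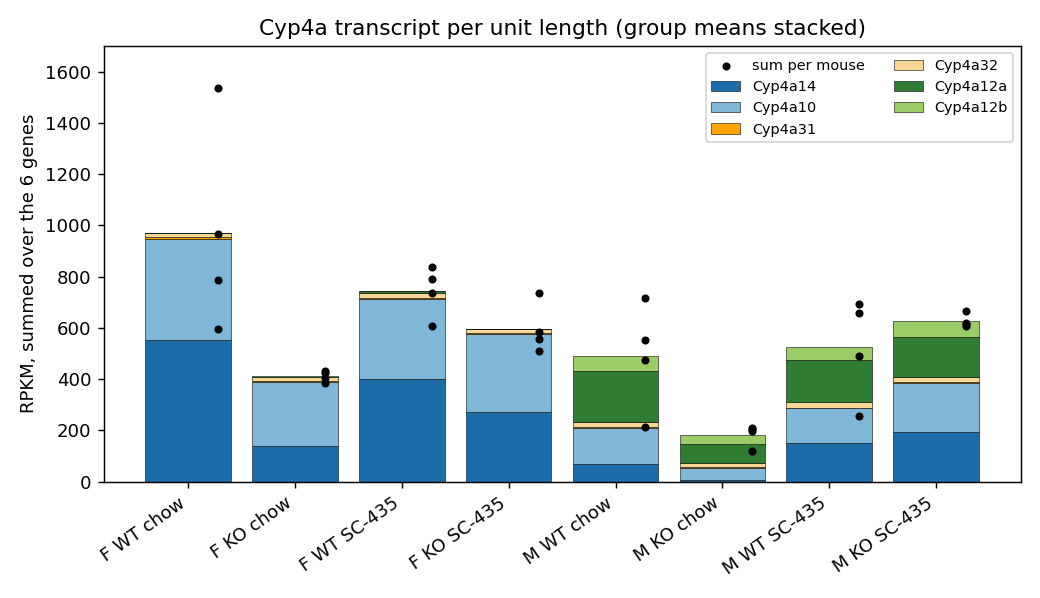
Stacked bars give the group means of RPKM for the 6 Cyp4a genes (vertical axis, starting at 0) in the 8 groups of 4 mice (F, female; M, male), and black points give each mouse's sum. The sum was lowest in KO chow males (183 RPKM) and, among females, in KO chow mice (411 RPKM), and the green Cyp4a12 segments are visible in male groups but hardly in female groups.

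Across the 8 groups, KO mice on chow had the lowest family sum within each sex. In females the sum was 411 ± 22.2 RPKM in KO mice on chow, 743 ± 99.3 in WT mice on SC-435 and 597 ± 98.6 in KO mice on SC-435. In males it was 183 ± 42.2 in KO mice on chow, 524 ± 200 in WT mice on SC-435 and 627 ± 27.8 in KO mice on SC-435. These sums were not tested, since the members were chosen with such values known.

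**Figure D2:**
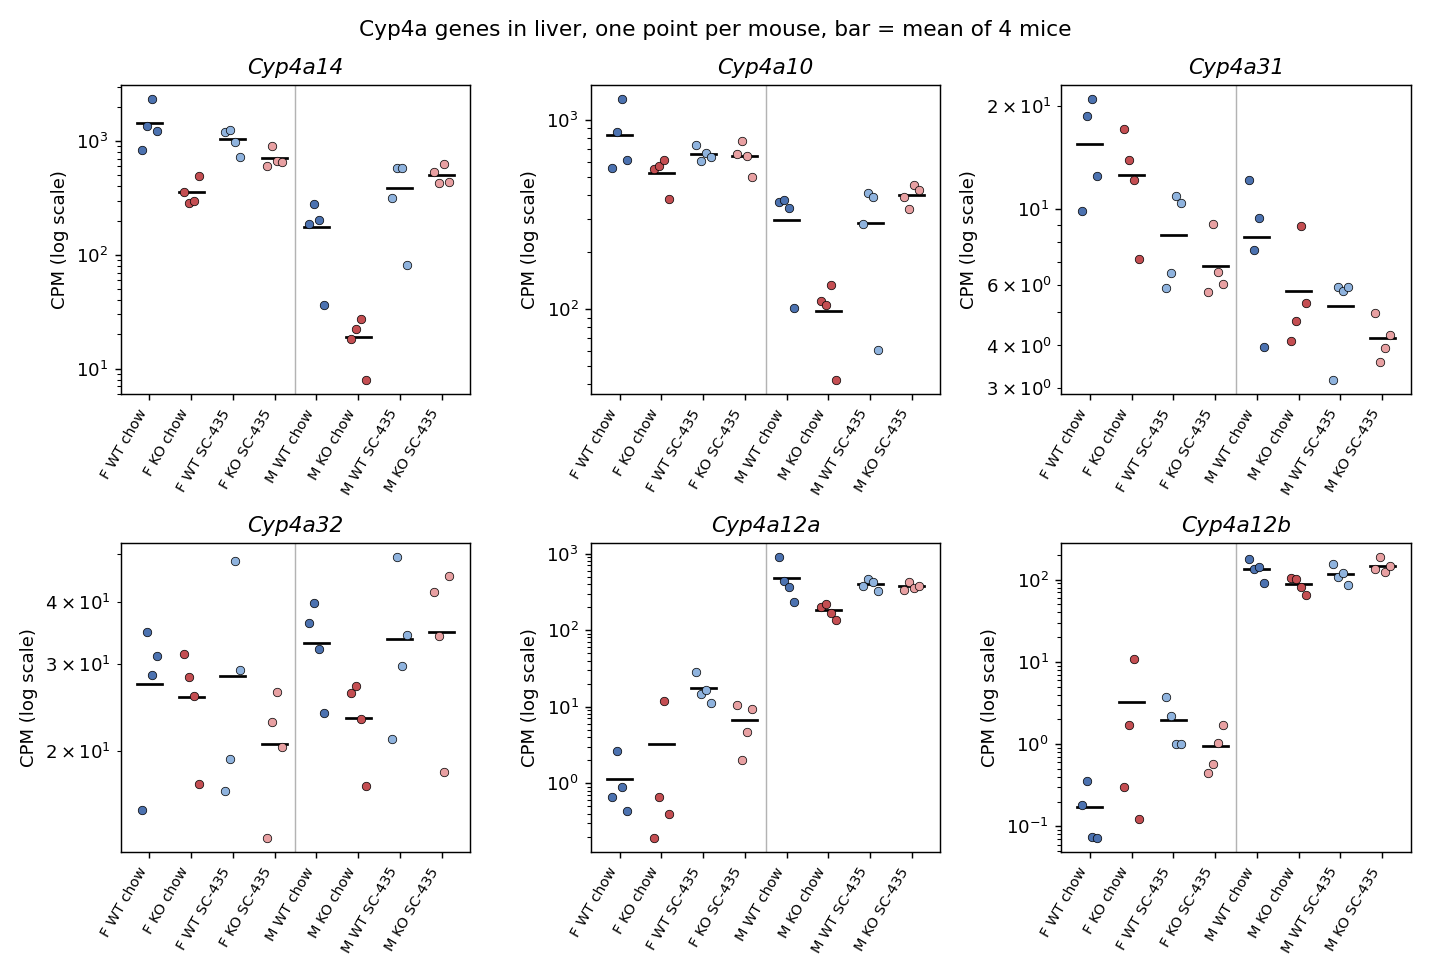
Each panel shows one Cyp4a gene in CPM on a log axis, with one point per mouse and a bar at the mean of 4 mice, for 4 female groups on the left of the line and 4 male groups on the right. Cyp4a14 in KO chow females (288 to 493 CPM) lies below all other female groups, and Cyp4a12a and Cyp4a12b in every female group lie below every male group.

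Cyp4a14, the member with the clearest separation in sequence, fell in KO females on chow. The 4 WT females on chow had 827, 1369, 2342 and 1229 CPM. The 4 KO females on chow had 356, 288, 295 and 493 CPM. Every KO mouse was below every WT mouse. The log2 fold change was -1.99 ± 0.30 (SE), a 3.97-fold lower level (edgeR quasi-likelihood test, adjusted p = 0.00308). Cyp4a14 was the one member of 6 called in this comparison, where 6.68% of 16205 genes tested were called and 1.01% were called lower. A call needed a Benjamini-Hochberg adjusted p under 0.05 over all genes tested and an absolute log2 fold change over 1. Without female WT chow mouse 2 the value was -2.02 (edgeR adjusted p = 0.0111).

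Markers of other cell types moved with this comparison. The summed level of 6 cholangiocyte markers was 131 to 284 CPM in KO females on chow against 36.6 to 70.1 in WT females, with 4 of 6 called higher, and that of 7 macrophage markers was 571 to 840 against 356 to 429, also with 4 called higher. Most of the cholangiocyte sum was Spp1, with a mean count of 5464 against 433 or less for each other marker of that list. The summed level of 8 hepatocyte markers was 52661 to 76841 CPM in KO against 90506 to 118461 in WT females, with a median log2 fold change of -0.47 and 1 of 8 called lower. Most of this sum was Alb, with a mean count of 2897819 against 227504 or less for each other marker. Cps1 was the only hepatocyte marker with a positive value (0.53, edgeR adjusted p = 0.021), and Tat and Fah were at -0.16 and -0.09. Of 3 neutrophil markers tested 3 were called higher, of 5 stellate markers 2, of 4 T cell markers 1 and of 4 B cell and 4 endothelial markers 0, 1 pancreatic acinar marker was called lower, and the 4 kidney markers fell under the filter on low counts. The part of these shifts in the Cyp4a14 result was not tested.

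SC-435 was associated with a higher Cyp4a14 level in KO females. KO females on SC-435 had 603, 910, 672 and 650 CPM, all above the 288 to 493 CPM of KO females on chow. The log2 fold change was 0.97 ± 0.19, a 1.96-fold difference that passed the p threshold (edgeR adjusted p = 0.00892) and missed the fold threshold. Leaving out female KO chow mouse 4 gave 1.16, leaving out female KO SC-435 mouse 1 gave 1.05 and leaving out mouse 4 of that group gave 1.01, each past both thresholds. Of the 6 members edgeR called 0, at 5.80% of 16332 genes tested, and DESeq2 also called 0. At an unadjusted edgeR p under 0.05 were 2 of 6 members and 5404 of all 16332 genes, a similar share. The macrophage markers were at 293 to 448 CPM and the cholangiocyte markers at 97.5 to 141 CPM in KO females on SC-435. The hepatocyte sum was 82216 to 95657 CPM, above all KO females on chow, with 0 of 8 called by edgeR and 3 at an unadjusted p under 0.05. Called lower with SC-435 were 4 of 7 macrophage, 3 of 3 neutrophil, 1 of 5 stellate and 1 of 4 B cell markers. The part of these shifts in the difference was not tested. Both comparisons use the same 4 KO females on chow.

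In WT females the SC-435 difference in Cyp4a14 did not pass the test. WT females on SC-435 had 1202, 1254, 984 and 718 CPM of Cyp4a14, within the spread of WT females on chow (log2 fold change -0.47 ± 0.29, edgeR adjusted p = 0.405). Between KO and WT females that both received SC-435 the log2 fold change was -0.55 ± 0.18 (edgeR adjusted p = 0.0742), with overlapping groups. The SC-435 difference in KO minus that in WT females, tested as an interaction over all 16 female libraries, was 1.43 ± 0.37 on the log2 scale (edgeR adjusted p = 0.0496), where 2.64% of 16882 genes passed an adjusted p of 0.05. Cyp4a14 was the 1 member of 6 past that threshold. It kept the call in 2 of 16 fits that left out one mouse, with adjusted p between 0.0111 and 0.116 and values between 1.10 and 1.63. The call held without female WT chow mouse 1 and without female KO chow mouse 4 and was lost without each of the other female mice.

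In males, the comparisons that chose Cyp4a14 are given as values. WT males on chow had 187, 278, 203 and 36.5 CPM, and KO males on chow had 18.1, 22.2, 27.4 and 7.95 CPM. KO males on SC-435 had 533, 428, 633 and 438 CPM. The fitted log2 fold change was -3.18 ± 0.60 for KO against WT on chow and 4.72 ± 0.36 for SC-435 against chow in KO. In these comparisons 1.05% of 15862 genes and 6.45% of 15984 genes were called, and nothing is read from Cyp4a14 against them. Without male WT chow mouse 1 the KO value was -3.15. Cholangiocyte markers summed to 143 to 1152 CPM in KO males on chow, against 23.4 to 34.8 in WT males on chow and 49.3 to 60.5 in KO males on SC-435. Stellate markers summed to 211 to 508, 117 to 147 and 113 to 158 CPM in the same groups, neutrophil markers to 4.8 to 13.6, 2 to 3.4 and 1.56 to 2.59 CPM, and hepatocyte markers to 50599 to 79377, 74539 to 177366 and 63444 to 89244 CPM. Macrophage markers summed to 324 to 1260, 274 to 463 and 271 to 417 CPM in those groups, with overlap. Endothelial markers summed to 105 to 140, 153 to 173 and 132 to 153 CPM, lower in KO than in WT males on chow. Over KO and WT males on chow, Spp1 averaged 12618 counts, against 416 or less for each other cholangiocyte marker. Alb averaged 2406276 counts, against 323546 or less for each other hepatocyte marker. The part of these markers in the male values was not tested. WT males on SC-435 had 317, 580, 584 and 80.7 CPM, a log2 fold change of 1.13 ± 0.68 from chow (1.17 without male WT chow mouse 1), with overlapping groups. The WT males on chow in this comparison were also used for the choice, so the value is not independent of it.

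Male mouse 4 was low in several groups. Mouse 4 had the lowest Cyp4a14 level among WT males on chow, KO males on chow and WT males on SC-435, and the level within those groups varied 7.61-, 3.45- and 7.23-fold. The labels do not say that mice with the same number share a litter or day. Ordered by group mean, Cyp4a14 ran from WT females on chow (1441 ± 642 CPM) through WT females on SC-435 (1039 ± 244), KO females on SC-435 (709 ± 137), KO males on SC-435 (508 ± 96.1), WT males on SC-435 (390 ± 241), KO females on chow (358 ± 94.8) and WT males on chow (176 ± 101) to KO males on chow (18.9 ± 8.25). Neighbours in this order overlapped except KO females on chow against WT males on chow, and WT against KO males on chow.

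Cyp4a10, the other classical PPARα-responsive member, followed a narrower range. WT females on chow had 554, 860, 1286 and 612 CPM and KO females on chow had 548, 566, 609 and 379 CPM. These groups overlapped, with a log2 fold change of -0.63 ± 0.26 (edgeR adjusted p = 0.127). KO females on SC-435 had 655, 775, 641 and 501 CPM (0.27 ± 0.17 against chow, edgeR adjusted p = 0.289), and WT females on SC-435 had 732, 608, 665 and 639 CPM (-0.32 ± 0.23 against chow, edgeR adjusted p = 0.485). No female comparison of Cyp4a10 passed the test. Summing Cyp4a10, Cyp4a31 and Cyp4a32, which share words, gave -0.60 ± 0.26 for KO against WT on chow (edgeR adjusted p = 0.139).

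KO males had less Cyp4a10 than KO females on chow. KO males on chow had 110, 105, 134 and 42.2 CPM, all below the 379 to 609 CPM of KO females. The log2 fold change of males against females was -2.44 ± 0.33 (5.42-fold lower, edgeR adjusted p = 0.00579), and the sum of the trio gave -2.17 ± 0.29 (edgeR adjusted p = 0.00521). These KO males were also used to choose Cyp4a14, and Cyp4a10 varied with Cyp4a14 (r 0.91 over the male libraries). The p-values of this comparison are therefore not independent of that choice. Among WT mice on chow, males had 368, 375, 340 and 101 CPM, all below the females, with -1.46 ± 0.43 (edgeR adjusted p = 0.208, and 0.0517 without male WT chow mouse 1). DESeq2 gave -1.44 with an adjusted p of 0.0379 for this WT comparison. The WT males on chow were used for the choice as well, so the same limit holds.

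In the male comparisons used for the choice, the fitted log2 fold change of Cyp4a10 was -1.56 ± 0.45 for KO against WT on chow (-1.44 without male WT chow mouse 1) and 2.01 ± 0.30 for SC-435 against chow in KO. KO males on SC-435 had 391, 339, 450 and 426 CPM, all above the KO males on chow. Among WT males, SC-435 gave -0.07 ± 0.57 (edgeR adjusted p = 0.978), with 280, 412, 390 and 61.1 CPM on SC-435, and 0.07 without male WT chow mouse 1. None of the 5 members tested was called in SC-435 against chow in WT males, where 0.0394% of 15211 genes were called, nor in KO against WT males on SC-435, where 0.0259% of 15434 were called. In both comparisons 0 of these 5 members had an unadjusted p under 0.05 in edgeR, and DESeq2 also called 0. Over all genes, 931 of 15211 and 1366 of 15434 were at that unadjusted p.

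Levels of Cyp4a10 and Cyp4a14 varied together from mouse to mouse. Pearson's r of log2(CPM + 0.5) was 0.93 over the 32 libraries, 0.68 over the 16 females, 0.91 over the 16 males and 0.90 after subtracting group means. These libraries share group, sex and library preparation, and the correlation is a description. For Cyp4a31 and Cyp4a32, which share words with Cyp4a10, r with Cyp4a14 was 0.37 and 0.08 over the 32 libraries.

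Cyp4a31 and Cyp4a32, whose roles are less well described, were low. Cyp4a31 ran from 3.17 to 21 CPM over all mice and Cyp4a32 from 13.3 to 49.2 CPM. In KO females Cyp4a31 was 5.75 to 9.07 CPM on SC-435 against 7.17 to 17.2 on chow, a log2 fold change of -0.90 ± 0.25 (edgeR adjusted p = 0.0327) that missed the fold threshold. It was past both thresholds without female KO chow mouse 4 (-1.09) and without female KO SC-435 mouse 2 (-1.06). The sum of Cyp4a10, Cyp4a31 and Cyp4a32 gave 0.23 ± 0.17 there (edgeR adjusted p = 0.37). In WT females the SC-435 difference was -0.87 ± 0.27 (edgeR adjusted p = 0.113). Here Cyp4a31 and Cyp4a14 had opposite signs in KO females, and the difference between the genes was not tested. Cyp4a32 was between -0.45 and 0.30 in every comparison in which it was tested, with edgeR adjusted p of at least 0.334.

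**Figure D3:**
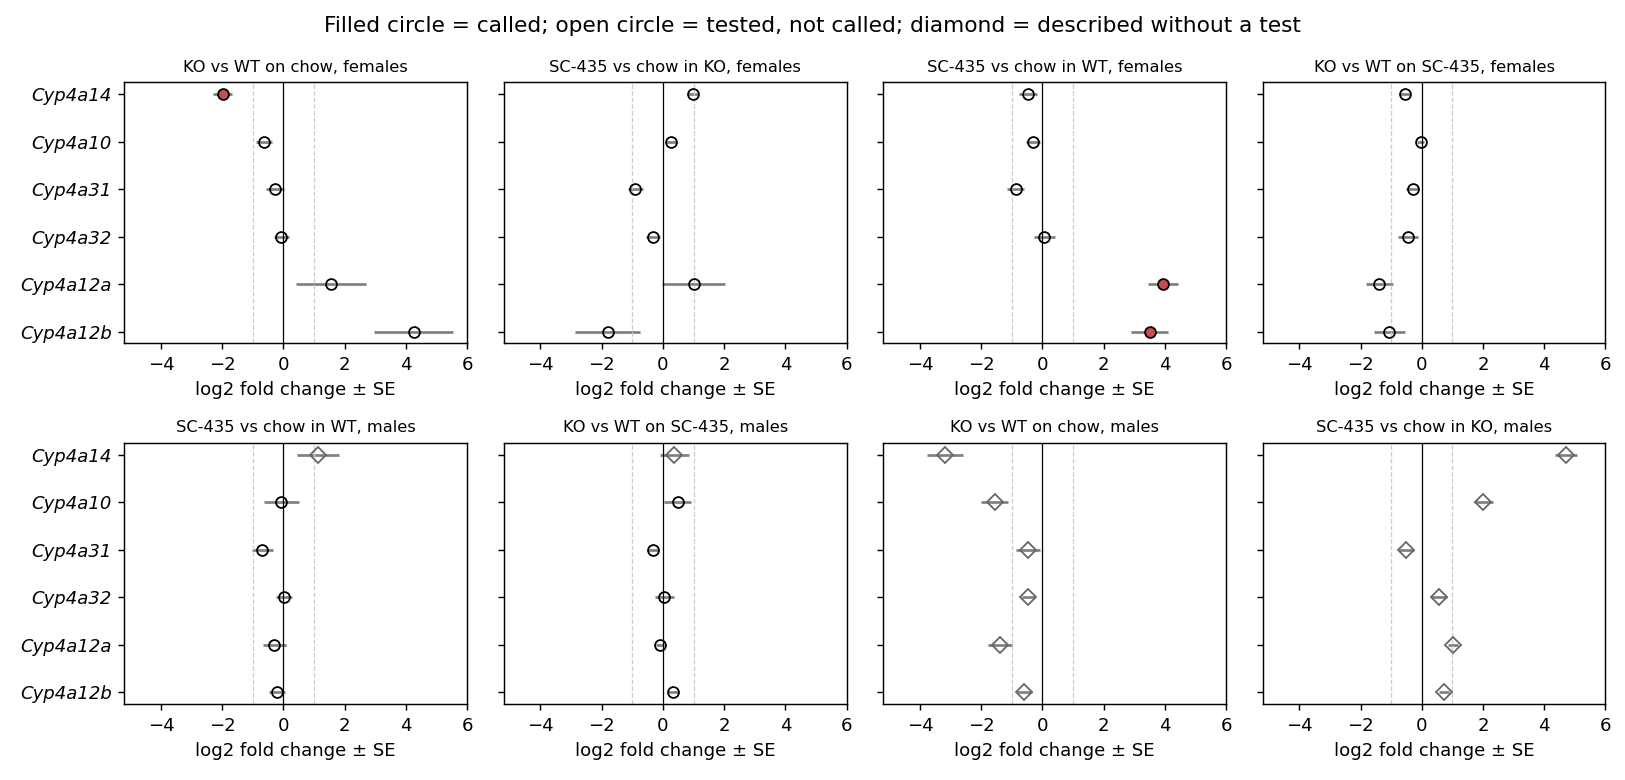
Fitted log2 fold changes (horizontal axis) with their standard errors are shown for the 6 members in 8 comparisons of 4 against 4 mice, with dashed lines at the fold threshold. The filled circles are Cyp4a14 in KO against WT females on chow (-1.99) and Cyp4a12a and Cyp4a12b in WT females on SC-435 against chow (3.94 and 3.51).

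Cyp4a12a and Cyp4a12b were read almost entirely in males. WT males on chow had 895, 444, 366 and 233 CPM of Cyp4a12a, and WT females on chow had 0.656, 2.6, 0.884 and 0.43 CPM. For Cyp4a12b the values were 176, 135, 143 and 89.9 CPM in those males and 0.184, 0.354, 0.0737 and 0.0716 CPM in those females. No male overlapped a female for either gene. Males against females gave 8.75 ± 0.79 for Cyp4a12a (edgeR adjusted p = 0.000739) and 9.63 ± 0.54 for Cyp4a12b (edgeR adjusted p = 4.12e-05), the 2 called of 5 members tested, at 1.40% of 15525 genes called. Without male WT chow mouse 1 the values were 8.24 and 9.47, and without female WT chow mouse 2 they were 9.55 and 10.28. The summed pair gave 8.90 ± 0.75 (edgeR adjusted p = 0.000619). That female library had the highest Cyp4a12a of its group, along with the highest Mup7 (68.8 CPM) and Hsd3b5 (29.2 CPM), both male-biased genes. The WT males on chow were also used to choose Cyp4a14, so the p-values of this comparison are not independent of that choice.

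In KO mice on chow the same pair was higher in males, by 5.77 ± 1.17 for Cyp4a12a (edgeR adjusted p = 0.0372) and 4.73 ± 1.04 for Cyp4a12b (edgeR adjusted p = 0.0488). With Cyp4a10 this made 3 of 5 members called, at 1.57% of 16561 genes. The limit given above for the Cyp4a10 test holds for this pair too. The KO males on chow were used to choose Cyp4a14, and r with Cyp4a14 over the male libraries was 0.78 for Cyp4a12a and 0.74 for Cyp4a12b. These p-values are therefore not independent of that choice. The summed pair gave 5.35 ± 1.17 (edgeR adjusted p = 0.0483). Leaving out female KO chow mouse 3 raised the differences to 8.76 and 6.88. The calls of both genes were lost without each of female KO chow mice 1, 2 and 4 and male KO chow mice 1, 2 and 3, with adjusted p up to 0.105 for Cyp4a12a and 0.154 for Cyp4a12b.

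Both Cyp4a12 genes rose with SC-435 in WT females. WT females on SC-435 had 28.2, 14.7, 16.5 and 11.1 CPM of Cyp4a12a, all above the 0.43 to 2.6 CPM of WT females on chow. For Cyp4a12b they had 3.77, 2.17, 1.01 and 0.989 CPM, all above 0.0716 to 0.354. The log2 fold change was 3.94 ± 0.50 (15.3-fold, edgeR adjusted p = 0.00581) for Cyp4a12a and 3.51 ± 0.60 (11.4-fold, edgeR adjusted p = 0.0153) for Cyp4a12b. These were 2 of 6 members called, at 1.10% of 15739 genes. The summed pair gave 3.89 ± 0.50 (edgeR adjusted p = 0.00597), and without female WT chow mouse 2 the values were 4.75 and 4.16. The raised level stayed below the lowest male levels, 137 CPM for Cyp4a12a and 65.1 CPM for Cyp4a12b.

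Cyp4a12b rested on few reads in WT females on chow, with 3 to 15 counts per library, whereas WT females on SC-435 had 42 to 158. Cyp4a12a had 18 to 110 and 493 to 1183 counts in the same groups. Of 14 male-biased liver genes listed for comparison, 2 were called higher and 1 lower with SC-435 in WT females, and 1 of 14 female-biased genes was called lower. Over all genes 1.10% of 15739 were called. The elongase Elovl3 was 2.07 ± 0.20 higher (edgeR adjusted p = 0.00196) and Susd4 1.21 ± 0.27 higher (edgeR adjusted p = 0.0353), and the steroid dehydrogenase Hsd3b5 was -5.71 ± 1.18 (edgeR adjusted p = 0.0288), and the highest of its chow values was in the library with reads on Y-linked genes.

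One KO female on chow carried most of the Cyp4a12 signal of its group. KO females on chow had 0.19, 0.652, 11.8 and 0.389 CPM of Cyp4a12a and 0.305, 1.73, 10.9 and 0.122 CPM of Cyp4a12b. Mouse 3 was the highest for both. It had no read on the 4 Y-linked genes, and its Hsd3b5 level was 0.275 CPM, within the 0.0767 to 0.462 CPM of its group. Of other male-biased genes, its Mup20 (250 CPM against 72.3 to 128), Cyp2d9 (110 CPM against 45.7 to 49.5) and Selenbp2 (33.7 CPM against 11.7 to 31.5) were also the highest of its group. Its Cyp7b1 (16 CPM), Elovl3 (0.53), Slco1a1 (22.3) and Mup7 (0.0982) were not, and were below those of mouse 4 (24.2, 1.51, 40.8 and 1.02 CPM). Against WT females on chow the log2 fold change was 1.54 ± 1.14 for Cyp4a12a (edgeR adjusted p = 0.396, and -1.44 without mouse 3) and 4.26 ± 1.29 for Cyp4a12b (edgeR adjusted p = 0.0508). Without female WT chow mouse 2 the values were 2.34 and 4.91 (edgeR adjusted p = 0.286 and 0.0848), and the summed pair gave 2.34 ± 1.14 (edgeR adjusted p = 0.193).

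The Cyp4a12b value against WT passed both thresholds without female KO chow mouse 1 (4.67) and without mouse 4 (4.68). Against KO females on chow, KO females on SC-435, with 10.5, 2.03, 4.71 and 9.43 CPM of Cyp4a12a, gave 1.0 ± 1.04 (edgeR adjusted p = 0.543). Without mouse 3 this became 3.99 (edgeR adjusted p = 0.00751), so 1 library decided the call. For Cyp4a12b, at 0.446, 0.577, 1.03 and 1.73 CPM on SC-435, the value was -1.81 ± 1.07 (edgeR adjusted p = 0.266) and 0.36 without mouse 3. The interaction of genotype and diet in females was -2.95 ± 1.31 for Cyp4a12a (edgeR adjusted p = 0.219, and 0.05 without mouse 3) and -5.34 ± 1.47 for Cyp4a12b (edgeR adjusted p = 0.0614). Without female WT chow mouse 2 these were -3.76 and -5.99 (edgeR adjusted p = 0.163 and 0.0782), and the summed pair gave -3.71 ± 1.30 (edgeR adjusted p = 0.124). On SC-435, KO females had less Cyp4a12a than WT females in every mouse, with -1.39 ± 0.44 (edgeR adjusted p = 0.069), and edgeR called 0 of 6 members, at 2.56% of 15869 genes. At an unadjusted edgeR p under 0.05 were 2 of 6 members and 4307 of all 15869 genes, a similar share. DESeq2 also called 0 there.

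**Figure D4:**
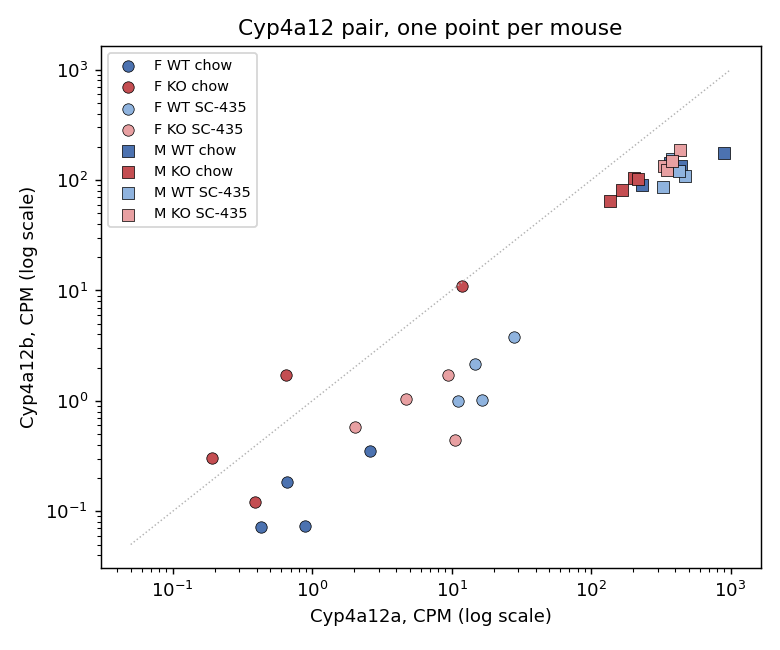
Cyp4a12a (horizontal axis) is plotted against Cyp4a12b (vertical axis), both in CPM on log axes, with one point per mouse (circles, females; squares, males) and a dotted line where they are equal. Males form one cluster at the upper right, and 2 KO chow females lie above the line while KO chow mouse 3 lies close to it, at 11.8 and 10.9 CPM.

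The ratio of the pair varied between groups, with few reads behind some female values. Per unit length, Cyp4a12b was 0.199 to 0.517 of Cyp4a12a over all males. In KO females on chow the ratios were 1.62, 2.68, 0.934 and 0.316, and in the other 12 females they were 0.0431 to 0.287. The KO females on chow had 16, 90, 553 and 5 counts of Cyp4a12b against 10, 34, 599 and 16 of Cyp4a12a, and WT females on chow had 3 to 15 of Cyp4a12b. In males the KO chow ratios, 0.473 to 0.517, were all above those of WT chow males, 0.199 to 0.396. How reads that match both copies were counted is not given in the sources used here, and the ratios were not tested.

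In the male comparisons used for the choice, Cyp4a12a was at 203, 218, 166 and 137 CPM in KO males on chow, all below WT males, with a fitted log2 fold change of -1.38 ± 0.38 (-0.90 without male WT chow mouse 1). KO males on SC-435 had 333, 431, 353 and 381 CPM, all above KO males on chow (1.02 ± 0.15). Cyp4a12b was at 65.1 to 104 CPM in KO males on chow and 123 to 187 CPM in KO males on SC-435 (0.72 ± 0.17). WT males on SC-435 had 379, 471, 427 and 326 CPM of Cyp4a12a, which did not pass the test against chow (-0.30 ± 0.38, edgeR adjusted p = 0.871, and 0.20 without male WT chow mouse 1).

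Other PPARα target genes were set beside Cyp4a14 and Cyp4a10, using 36 genes of fatty acid oxidation and transport. In KO against WT females on chow, 0 were called higher and 5 lower, where 1.01% of all 16205 genes were called lower. The list's median log2 fold change was -0.56 against -0.02 over all genes. At an edgeR adjusted p under 0.05 without the fold threshold, 23 were lower and 0 higher. No count over all genes at this threshold is given here, so the 23 are not read as an excess. At the wider limit of an unadjusted edgeR p under 0.05 were 4998 of all 16205 genes, in either direction. The count called lower was 5 without female WT chow mouse 2 and 4 without female KO chow mouse 3. Fabp1, the liver fatty acid binding protein, fell by 1.45 ± 0.22 (edgeR adjusted p = 0.00313), Angptl4, an inhibitor of lipoprotein lipase, fell by 1.56 ± 0.27 (edgeR adjusted p = 0.00592) and the acyl-CoA thioesterase Acot1 fell by 1.45 ± 0.35 (edgeR adjusted p = 0.0207). Cpt1a, the mitochondrial acyl carnitine transferase, was at -0.39 (edgeR adjusted p = 0.127). The Cyp4a14 value of -1.99 lay beyond those of these 4 genes, while Fgf21 had -2.08 (edgeR adjusted p = 0.069).

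With SC-435 in KO females, edgeR and DESeq2 called 0 of 36 list genes in either direction, with 17 at an unadjusted p under 0.05 in edgeR, 11 of them at an adjusted p under 0.05 and higher, and with a list median of 0.31 against -0.02 over all genes. Over all genes, 5404 of 16332 were at that unadjusted p, and 5.80% were called. No count over all genes at an adjusted p under 0.05 alone is given here, so the 11 are not read as an excess. In WT females 0 were called higher and 1 lower, Fabp1 at -1.02 (edgeR adjusted p = 0.00999), with a median of -0.09. Over all genes 1.10% of 15739 were called there, and 2.64% of 16882 passed the interaction test. The interaction passed for 3 genes with a positive value, Fabp1 at 1.72 and Ech1 at 0.75 among them, and for 1 with a negative value, Slc27a1 at -0.71 (edgeR adjusted p = 0.0141, 0.0157 and 0.0487). In the male comparisons used for the choice the list medians were -0.62 for KO against WT on chow (-0.37 without male WT chow mouse 1), against 0.04 over all genes, and 0.63 for SC-435 against chow in KO, against -0.03. Between WT males and females on chow, 3 of 36 were lower in males, Acot3 at -4.09 (edgeR adjusted p = 0.00561), Acot4 at -1.44 (edgeR adjusted p = 0.0285) and the fatty acid transporter Cd36 at -1.65 (edgeR adjusted p = 0.0464). That count was 9 without male WT chow mouse 1, 1 without female WT chow mouse 2 and 6 with DESeq2. Over all genes 1.40% of 15525 were called in the main fit.

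**Figure D5:**
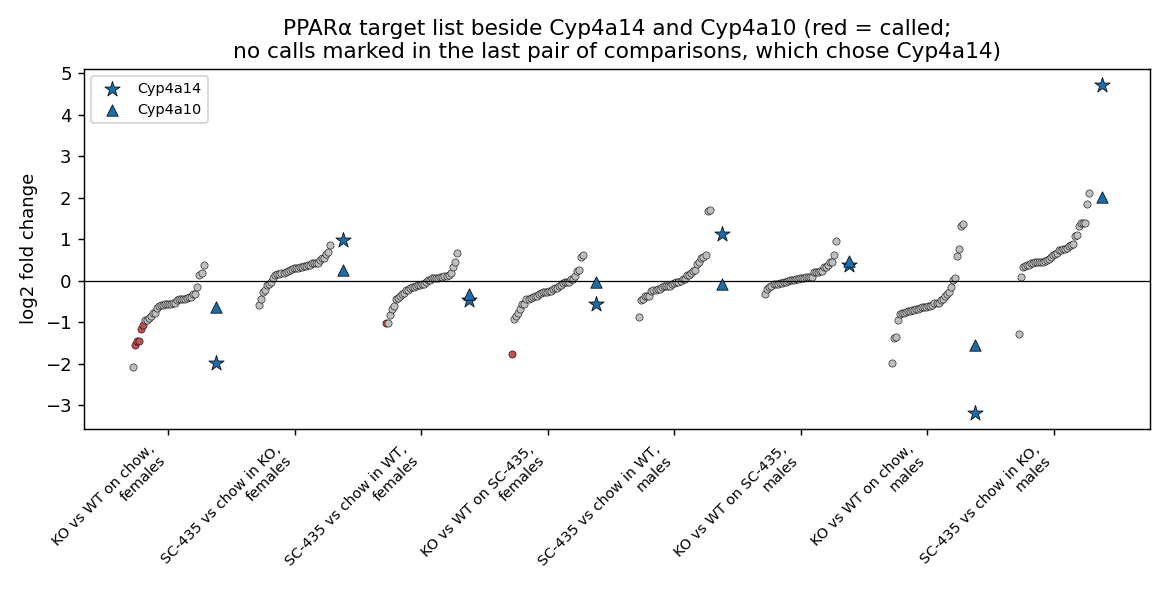
Log2 fold changes (vertical axis) of 36 PPARα target genes, sorted within each of 8 comparisons of 4 against 4 mice, are shown with Cyp4a14 (star) and Cyp4a10 (triangle) beside them. In KO against WT females on chow the list median was -0.56, with 5 genes called, and Cyp4a14 was at -1.99.

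Among 10 regulators, Ppara itself did not pass the test in KO against WT females on chow (-0.65 ± 0.27, edgeR adjusted p = 0.133), with 63.2 to 93.9 CPM in KO and 62.2 to 168 in WT females. The xenobiotic receptor CAR (Nr1i3) fell by 1.24 ± 0.21 (edgeR adjusted p = 0.00509), the 1 of 10 called. That is near the share over all genes, 6.68% of 16205. In WT females on SC-435, Nr0b2 (SHP), a bile acid-responsive corepressor, fell by 1.36 ± 0.30 (edgeR adjusted p = 0.0345), again the 1 of 10 called, and 0 were called there without female WT chow mouse 2. Over all genes 1.10% of 15739 were called there.

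Of the enzymes and transporters that act after the Cyp4a step, few were past both thresholds in females. Of 21 such genes, 9 of which are also in the PPARα list, 0 were called in KO against WT females on chow by edgeR or DESeq2 (median -0.46, 14 at an unadjusted edgeR p under 0.05), 1 was called higher with SC-435 in KO females (median 0.43), and 0 were called by either tool with SC-435 in WT females (median 0.01, 7 at an unadjusted p under 0.05). Over all genes, 4998 of 16205 were at that unadjusted p in the first comparison and 3114 of 15739 in the last. Called were 6.68% of all genes in the first, 5.80% of 16332 with SC-435 in KO females and 1.10% in the last. The 1 of 21 called with SC-435 in KO females is thus near the share over all genes. In KO against WT females on chow 10 of 21 had an edgeR adjusted p under 0.05 and missed the fold threshold, all of them lower in KO. With SC-435 in KO females 11 were higher and 1 lower at that adjusted p. No counts over all genes at that adjusted p alone are given here, so none of these is read as an excess. The gene called with SC-435 in KO females was the aldehyde dehydrogenase Aldh1a1, at 1.33 ± 0.18 (edgeR adjusted p = 0.00262). Of 14 other genes of the Cyp4 family, 9 passed the filter on low counts, and in KO against WT females on chow 2 were called higher, Cyp4f16 at 1.05 (edgeR adjusted p = 0.0226) and the leukocyte-expressed Cyp4f18 at 2.52 (edgeR adjusted p = 0.00219). That count was 1 without female WT chow mouse 2 and 1 without female KO chow mouse 3, and 6.68% of all 16205 genes were called in the comparison. Cyp4f18 fell by 1.42 on the log2 scale with SC-435 in KO females (edgeR adjusted p = 0.0297), and the macrophage markers given above moved the same way in both comparisons.

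The genes whose pattern over the 32 libraries was most like that of Cyp4a14, out of 11895 protein-coding genes with at least 1 CPM other than the 6 members, were Acss3, Gstt3, Tox, Cyp2c68 and Pon1 (Pearson's r 0.89, 0.88, 0.88, 0.88 and 0.86). After subtracting group means these fell to between 0.36 and 0.55, below the 0.90 of Cyp4a10. For Cyp4a12a they were Ttc39c, Nat8, Alas2, Selenbp2 and Nat8f5 (0.96 to 0.94), and 0.13 to 0.53 after subtracting group means. These values describe libraries that share sex and group.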

How the data were processed

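Liver RNA was sequenced from 32 mice (8 groups of 4). The authors deposited whole-number counts per gene, used here; the submitters' processing notes name HISAT2 2.0.5, featureCounts 1.5.0-p3, DESeq2 1.20.0, GATK 4.1.1.0 and build mm10, with strand and multi-mapping settings not given in the sources used here. Columns of FPKM, of normalized count signal averaged per group, of log2 fold changes and of p-values, all made by the authors, were also deposited and not used. Libraries in a group differed by far more than sampling noise (chi-square per gene at least 20.3 in 48 pairs). Median depth was 42232543 counts, and the p-values set group differences against the spread between mice.

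The members and gene lists were chosen with earlier results of these data known. Counts were filtered (filterByExpr), TMM-scaled and tested with edgeR 4.0.16 (quasi-likelihood, R 4.3.3), per pair of groups, or over the 16 female libraries for the interaction. Benjamini-Hochberg adjustment covered all genes tested. A call needed an adjusted p under 0.05 and, except for the interaction, an absolute log2 fold change over 1. The standard error is the log2 fold change divided by the square root of F. CPM used TMM factors over all 32 libraries. All members, all listed regulators, up to 3 called genes with the largest change per other list and comparison (at least 50 counts on average), 9 fixed PPARα targets, and the 5 genes most correlated with Cyp4a14 or Cyp4a12a were open to naming. Some listed genes are not reported here by name. The tests were checked on simulated counts. DESeq2 1.42.0, other scalings, no filter, a replicate block, summed paralogs, a joint fit of 32 libraries and leaving out each mouse were the alternatives. Leaving out 3 libraries for the list counts and medians, leaving out 1 for Cyp4a14 in males, and DESeq2 for the list counts, were chosen after seeing the data. Sequences and exons came from the GENCODE vM21 annotation of GRCm38.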

Additional observations from a re-analysis of the deposited data

Results flagged for a closer look

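In 48 sets of 4 mice (6 genes in 8 groups), 4 had a mouse whose gap to the nearest other exceeded Dixon's 95% critical value, and chance gives about 1 in 20. Cyp4a12a (11.8 CPM) and Cyp4a12b (10.9 CPM) were both highest in female KO chow mouse 3, with 0 reads on the 4 Y-linked genes. Cyp4a10 was lowest in male WT chow mouse 4, at 101 CPM against 340 to 375 CPM in the others. Cyp4a31 was lowest in male WT SC-435 mouse 1, at 3.17 CPM. The SC-435 difference in Cyp4a14 was larger in KO than in WT females by 1.43 on the log2 scale (edgeR interaction test, adjusted p = 0.0496), and this was not held in most fits without one mouse.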

How the results depend on the processing

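One choice was changed at a time, except that DESeq2 also brought its own scaling and no filter on low counts, and the fit of all 32 libraries its own set of tested genes. Members called in KO against WT females on chow numbered 1, and 2 by library size only, DESeq2, no filter or a fit of all 32 libraries (1 to 2 leaving out one mouse), Cyp4a12b being the addition. With SC-435 in KO females the count was 0, and 1 by library size only (0 to 2). With SC-435 in WT females it was 2, and 1 in the fit of all 32 libraries, and for KO against WT females on SC-435 it was 0, and 1 without a filter. For KO males against females on chow it was 3, and 2 by library size only and 4 in the fit of all 32 libraries (1 to 3 leaving out one mouse). Both paralog sums were called there, and they hold 5 members, though Cyp4a31 and Cyp4a32 were not called alone. For the interaction it was 1, 0 with median-of-ratios factors (adjusted p 0.0501 for Cyp4a14) or all 32 libraries (0.463), and 2 by library size only, DESeq2 or no filter (0 to 2). Library size only moved the median of all genes by up to 0.25, from 0.04 to 0.29 (KO against WT males on chow).

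The labels do not say that mouse numbers pair samples, and in no comparison did every same-numbered pair correlate over 0.1. For KO against WT males on chow 3 of 4 pairs did (0.08 to 0.17), and 7 of 8 mice correlated best with their own number, and for WT males against females on chow 3 of 4 did (0.05 to 0.42). With the replicate block, 1 member was called for KO males against females on chow and 0 for the interaction (adjusted p 0.0909 for Cyp4a14). The block turned the sign of Cyp4a12a in KO females on chow (-0.04) and of Cyp4a32 with SC-435 in WT females (-0.00) and WT males (-0.03). Library size only turned Cyp4a32 in KO females on chow (0.13) and Cyp4a10 with SC-435 in WT males (0.06). None of these was called.

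Leaving out one mouse turned signs of uncalled values, which ranged from -0.14 to 0.06 (Cyp4a10, KO against WT females on SC-435), -0.34 to 0.28 (Cyp4a10, SC-435 in WT males), -1.44 to 2.34, 0.20 as the highest from -0.51, and -3.76 to 0.05 (Cyp4a12a in KO females on chow, with SC-435 in WT males, and interaction), -2.28 to 0.36 (Cyp4a12b, SC-435 in KO females), -0.23 to 0.13 (Cyp4a31, interaction), and for Cyp4a32 -0.27 to 0.11 (KO females on chow), -0.33 to 0.25 and -0.22 to 0.17 (SC-435 in WT females and males) and -0.12 to 0.28 (KO against WT males on SC-435). The cause of these changes was not tested. Depth limits Cyp4a12b in females, read at 3 to 15 counts in WT mice on chow.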
